A study of Mus musculus with 19 samples.

Results

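The Hox genes are a family of homeobox transcription factors, and the 39 mouse members were taken as all symbols made of Hox, a cluster letter (a to d) and a number. All 39 were listed in the table of 7 wild-type (WT) tissues and in the table of brown adipose tissue (BAT), among 55573 and 55487 genes. In the table of iWAT (inguinal white fat, a depot under the skin) 26 of the 39 were listed among 13756 genes, and the other 13 are called not listed there. The members are 11 genes of cluster A, 10 of cluster B, 9 of cluster C and 9 of cluster D. By paralog number, 8 are anterior (1 to 3), 15 central (4 to 8) and 16 posterior (9 to 13).

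The series measured mRNA by sequencing in 19 mouse libraries, and values are FPKM (fragments scaled to exon length and to all mapped fragments of the library), so levels can be compared between genes per length. Brain, small intestine, heart, liver, the tibialis anterior (TA) muscle of the shin and both white and brown adipose tissue of WT C57BL/6J mice gave 1 library each. iWAT and BAT were taken from WT and MCK-Musclin mice, 3 libraries per genotype and depot, and all 12 of these libraries came from mice kept at 8 °C for 1 week. MCK-Musclin mice carry the coding sequence of Musclin, a peptide secreted by muscle and encoded by Ostn, behind the muscle creatine kinase promoter, which is meant to act in skeletal muscle and not in fat. The cold-exposed mice were 5-month-old males on chow. Which founder line they came from and the age of the mice behind the 7 tissues are not given in the sources used here. The study describes its RNA-seq replicates as independent animals, though no label ties a library to an animal.

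Hox genes lie in 4 clusters in the order in which they are used along the body, from head to tail. Each encodes a protein that binds DNA through its homeodomain, often together with Pbx and Meis partners. Adult fat and muscle cells and their precursors keep much of the Hox pattern of the region they come from, so the genes serve as a record of position.

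The homeobox, the stretch of 180 bases that encodes the homeodomain, is shown for the members on which the comparisons turn. It was found in the GENCODE transcripts of all 39 members, in GRCm38. Capitals mark codons 48 to 55, which encode part of the helix that reads DNA. Hoxa4 had the highest ratio of BAT over iWAT (chr6:52190483-52190662, minus strand), Hoxb6 was past the cutoff in iWAT of MCK-Musclin mice (chr11:96300689-96300868, plus strand), and the other 3 lie side by side in cluster C on the plus strand (Hoxc8 at chr15:102992571-102992750, Hoxc9 at chr15:102983930-102984109 and Hoxc10 at chr15:102970848-102971027).
Hoxa4: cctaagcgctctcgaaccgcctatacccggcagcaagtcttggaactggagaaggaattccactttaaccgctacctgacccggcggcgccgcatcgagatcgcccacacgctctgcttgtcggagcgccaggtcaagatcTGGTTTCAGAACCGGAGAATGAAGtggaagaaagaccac
Hoxb6: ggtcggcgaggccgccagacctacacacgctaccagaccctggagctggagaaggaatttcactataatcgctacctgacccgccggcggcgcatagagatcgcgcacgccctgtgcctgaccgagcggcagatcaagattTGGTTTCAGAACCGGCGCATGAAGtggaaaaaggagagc
Hoxc8: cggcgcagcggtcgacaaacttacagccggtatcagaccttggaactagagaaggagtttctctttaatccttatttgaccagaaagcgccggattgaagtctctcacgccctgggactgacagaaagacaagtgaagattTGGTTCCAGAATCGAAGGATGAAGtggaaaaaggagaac
Hoxc9: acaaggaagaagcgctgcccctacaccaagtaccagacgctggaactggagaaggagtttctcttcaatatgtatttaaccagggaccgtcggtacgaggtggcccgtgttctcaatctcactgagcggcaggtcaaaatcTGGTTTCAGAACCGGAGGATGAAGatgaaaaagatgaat
Hoxc10: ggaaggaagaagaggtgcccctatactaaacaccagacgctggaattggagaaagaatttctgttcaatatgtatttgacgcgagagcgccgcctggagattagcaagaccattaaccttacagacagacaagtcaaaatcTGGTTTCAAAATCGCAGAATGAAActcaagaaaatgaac
Hoxc9 and Hoxc10 shared 129 of the 180 bases, and Hoxc8 and Hoxc10 shared 108. Over all 741 pairs of members, the median identity was 80.6% within the same paralog number (42 pairs) and 60.6% in the other pairs.

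Exons of 16 members overlap exons of another gene, and in 10 of them that gene lies on the opposite strand. The reads were aligned without strand information, so such a pair cannot be told apart where it overlaps. Hoxc10 shares 166 bases, 8.70% of its exon bases, with Hoxc5 on the same strand, and Hoxa7 shares 586 bases, 20.4%, with the antisense gene Hoxaas3. The antisense gene Hoxb3os covers 52.9% of the exon bases of Hoxb3 and 27.3% of those of Hoxb2, and Hoxa11os covers 35.0% of those of Hoxa11. Hoxd3os1 overlaps Hoxd3 (8.28%) and Hoxd4 (11.8%), Hoxaas2 and Hoxaas3 overlap Hoxa3 (8.36% and 4.94%), and Hoxb5os overlaps Hoxb5 (3.59%). On the same strand, Gm28230 covers 53.1% of the exon bases of Hoxd3 and 39.1% of those of Hoxd4. Hoxd3 and Hoxd4 also share 388 bases with each other. Hoxa4 shares 255 bases, 16.0% of its exon bases, with the antisense gene Gm29430. Hoxa2 shares 15.0% of its exon bases with Gm28308 on the same strand. Hoxb6 and Hoxc8 share no exon with another gene.

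Among the 7 tissues, Hox genes were found in muscle, both fat libraries and the intestine. At 1 FPKM or more there were 20 members in white adipose, 15 in brown adipose, 13 in TA muscle and 11 in small intestine. In heart, brain and liver no member reached 1 FPKM, and the highest were Hoxb2 at 0.441 in heart, Hoxb5 at 0.681 in brain and Hoxa3 at 0.984 in liver. With 1 library per tissue there is no replicate check and no test. The marker lists of heart, liver, brain, small intestine and brown adipocytes each summed highest in the library of that tissue. The 4 adipocyte markers summed to 9524 FPKM in white and 4706 FPKM in brown adipose, and to 18.8 FPKM in small intestine. The fast muscle markers were highest in TA muscle, while 3 slow muscle markers summed to 24.2 FPKM there and to 270 FPKM in heart.

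**Figure D1:**
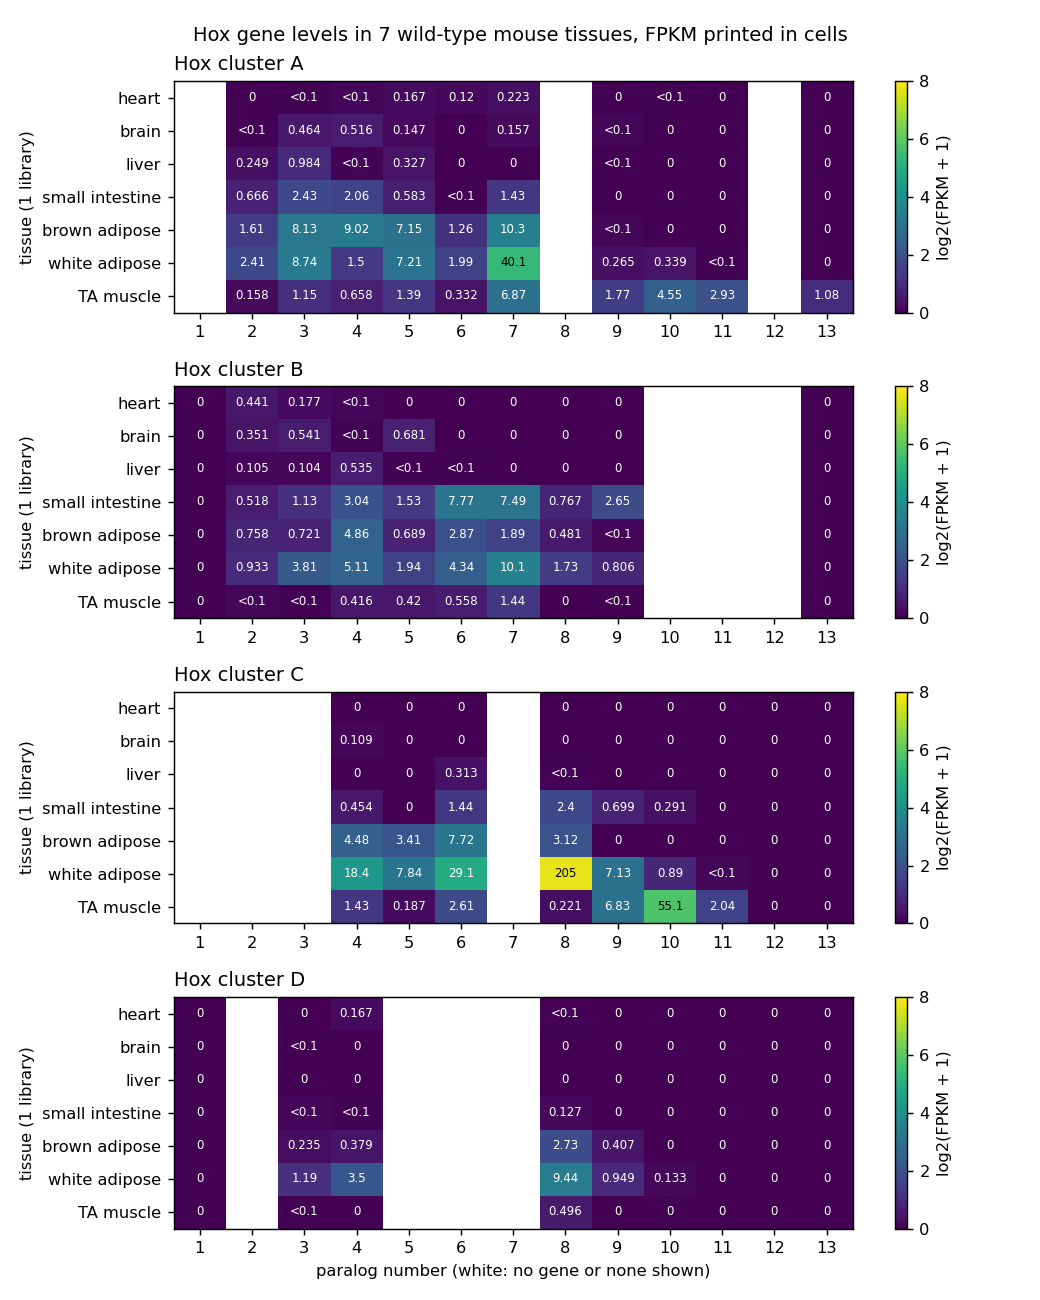
Levels of Hox genes in 7 WT tissues, 1 library each, by cluster and paralog number (columns). Color is log2(FPKM + 1) and the FPKM is printed in each cell, with white where there is no gene or none is shown. TA muscle reaches the highest paralog numbers, with Hoxc10 at 55.1, and white adipose has Hoxc8 at 205.

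In TA muscle, a hindlimb muscle, the posterior members led. They made up 80.1% of the summed Hox FPKM of 92.8, against 2.83% of 376 in white and 0.774% of 73.8 in brown adipose. Hoxc10, a gene of hindlimb and lower trunk, stood at 55.1 FPKM, followed by Hoxa7 at 6.87 and Hoxc9 at 6.83. Hoxa10 (4.55 FPKM), Hoxa11 (2.93 FPKM), Hoxc11 (2.04 FPKM) and Hoxa13 (1.08 FPKM), which pattern the limb from its base to its tip, were each higher there than in any other tissue. The highest members of the other clusters in muscle were Hoxb7 at 1.44 and Hoxd8 at 0.496 FPKM.

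In white adipose the central members held 92.5% of the Hox signal. Hoxc8, a gene of the trunk, alone reached 205 FPKM, with Hoxa7 at 40.1, Hoxc6 at 29.1 and Hoxc4 at 18.4. The highest members of clusters B and D were Hoxb7 at 10.1 and Hoxd8 at 9.44. Hoxc9 was the only posterior member at 1 FPKM or more (7.13), and Hoxc10 was at 0.890.

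In brown adipose the series of detected members stopped at paralog number 8. Hoxa7 (10.3 FPKM), Hoxa4 (9.02), Hoxa3 (8.13) and Hoxc6 (7.72) were highest, Hoxb4 led cluster B at 4.86 and Hoxd8 led cluster D at 2.73, while Hoxc9 and Hoxc10 were listed at 0. Of 21 members at 1 FPKM or more in either fat library, 13 were at least 2-fold higher in white and 2, among them Hoxa4, at least 2-fold higher in brown. By the same rule 39.2% of all genes were higher in white and 7.25% higher in brown. The 10 highest genes took 52.4% of the summed FPKM of the brown library and 17.0% of that of the white one, and the part of this in the ratios was not tested. The white library's depot is not given by its label. Wt1 and Tcf21, known as genes of visceral fat, were at 7.47 and 5.44 FPKM in it and were at 0 in all 6 BAT libraries and not listed in iWAT. Tcf21 was not particular to fat, with 17.3 FPKM in small intestine, 3.52 in liver and 2.95 in heart.

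In small intestine cluster B led, with Hoxb6 at 7.77 and Hoxb7 at 7.49 FPKM. Cluster B held 65.6% of the summed Hox FPKM there, against 3.21% in TA muscle. Hoxb9 reached 2.65 FPKM, and the highest members of clusters A, C and D were Hoxa3 at 2.43, Hoxc8 at 2.4 and Hoxd8 at 0.127 FPKM. In heart, Hoxa7 (0.223) and Hoxd4 (0.167) led their clusters, in brain Hoxa4 (0.516), Hoxc4 (0.109) and Hoxd3 (0.0216), and in liver Hoxb4 (0.535) and Hoxc6 (0.313). Cluster C was at 0 in heart and cluster D at 0 in liver.

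In the cold-exposed libraries the 2 depots could be set side by side with replicates. The iWAT and BAT tables were made separately, so the order of values is described and not tested. iWAT summed to 364710 to 384104 FPKM over its listed genes and BAT to 676362 to 720852 FPKM, with the 10 highest genes taking 48.4 to 51.3% in BAT and 11.9 to 13% in iWAT. These sums run over gene lists of different length, and their part in the order of values was not tested. Of the 26 members listed in both, every WT iWAT library was above every WT BAT library for 17 and every BAT library was above every iWAT library for 3. Over all 13750 genes listed in both tables these shares were 74.0% and 8.42%, so the count of members higher in iWAT is not itself a result about Hox genes. The 13 members not listed in iWAT, 9 of them posterior, enter neither count, so no split by zone is drawn from it.

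The posterior genes Hoxa10, Hoxc9 and Hoxc10 were the 3 members at 1 FPKM or more in iWAT and under 0.1 in BAT. No member met the reverse rule, which those not listed in iWAT could not meet. How many of all genes met either rule was not counted, so the count of 3 is not itself a result about Hox genes. Hoxc10 was at 27.8, 20.2 and 23.8 FPKM in the 3 WT iWAT libraries and was listed at 0 in all 6 BAT libraries. Hoxa10 was at 2.80, 2.21 and 2.84 FPKM in WT iWAT and at 0 in all 6 BAT libraries. Hoxc9 was at 14.2, 15.8 and 14.1 FPKM in WT iWAT against 0, 0.0286 and 0.0452 in WT BAT. No posterior member passed 0.5 FPKM in any BAT library, where the highest value was 0.408 (Hoxa9), and 11 of the 16 were at 0 in all 6. Of the 55487 genes listed in BAT, 23961 were above 0 in at least 1 of the 6 libraries. The count at 0 is thus not itself a result about Hox genes.

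Hoxc8 was the highest member in iWAT. It was at 136, 111 and 133 FPKM in WT iWAT and at 10.5, 6.97 and 6.98 FPKM in WT BAT, a ratio of means of 15.5 (n = 3 each). Hoxb7 was at 11.9 ± 0.945 FPKM in iWAT and 1.82 ± 0.373 in BAT (SD, n = 3), and Hoxc6 at 21.0 ± 5.74 and 6.43 ± 0.934. Their ratios of means were 6.55 and 3.27. The median ratio was 2.14 over all genes listed in both with BAT above 0, and 2.85 over the Hox members among them. Cluster C held 71.6 to 79.9% of the summed Hox FPKM in WT iWAT and 32.4 to 42.3% in WT BAT.

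The 3 members above in BAT were all in cluster A. Hoxa4, a gene of the neck and upper trunk, was at 10.1, 10.8 and 8.65 FPKM in WT BAT and at 2.77, 3.09 and 4.38 in WT iWAT. Hoxa5, which acts in the same region, was at 6.45, 7.43 and 4.84 FPKM in BAT and at 2.15, 2.45 and 2.35 in iWAT. Hoxa2 was at 1.25 ± 0.248 FPKM in BAT and 0.831 ± 0.158 in iWAT (SD, n = 3). Weighted by FPKM, the mean paralog number was 7.53 to 7.64 in WT iWAT and 5.10 to 5.47 in WT BAT, over the members each table lists. Between the MCK-Musclin libraries of both depots the split was also 17 to 3. The share of all genes was not counted there, so this split is not itself a result about Hox genes.

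**Figure D2:**
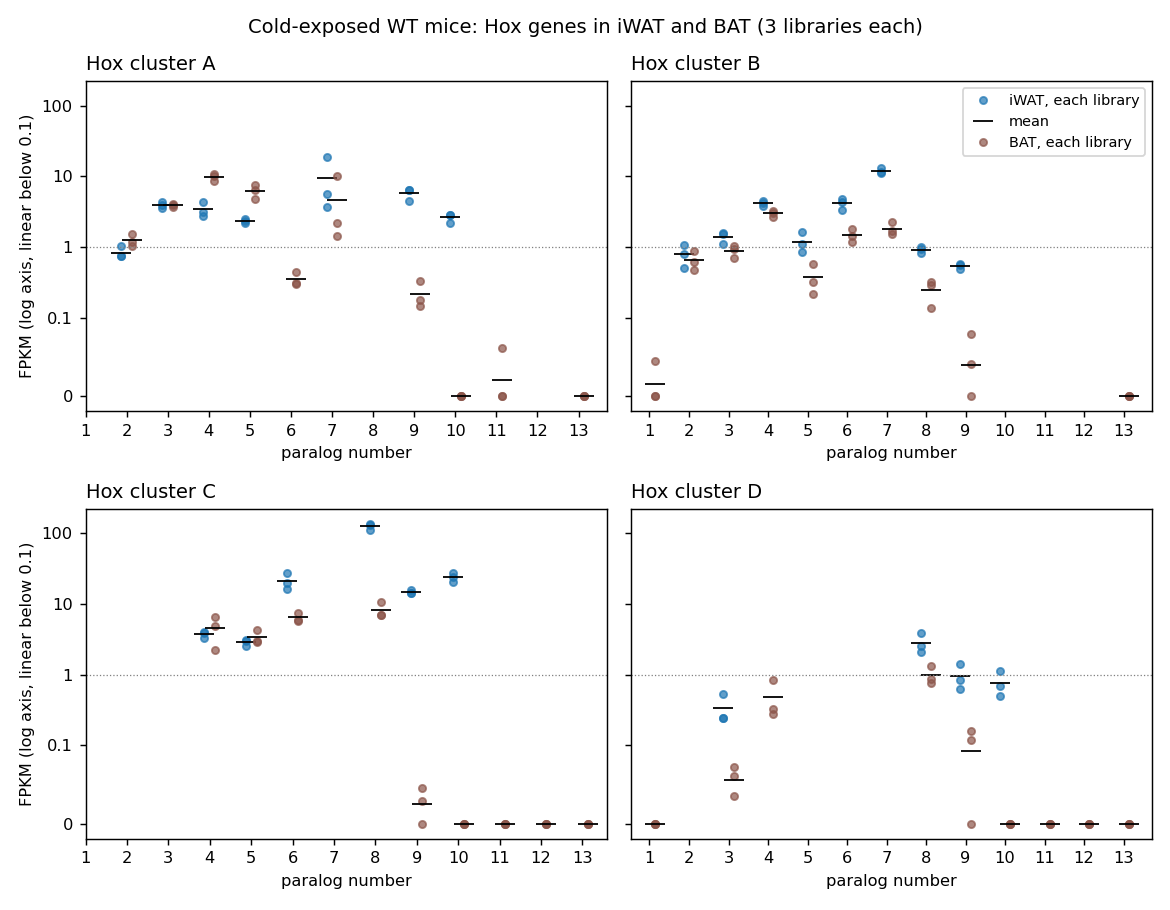
FPKM of Hox genes in cold-exposed WT iWAT (blue) and BAT (brown), 3 libraries each, by cluster and paralog number on a log axis that is linear below 0.1. The horizontal bar is the mean and the dotted line is 1 FPKM. Hoxa10, Hoxc9 and Hoxc10 stand above 1 in iWAT and under 0.1 in BAT, and how many of all genes do so was not counted. Members with no blue points are not listed in iWAT.

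The tissues differ in cell make-up as well as in place. In the 6 iWAT libraries 4 markers of fibroblasts and preadipocytes summed to 254 to 332 FPKM and in BAT to 13.2 to 27.8. Over 3 B cell markers the sums were 93.0 to 284 FPKM in iWAT and 0.261 to 0.758 in BAT. Over 3 T cell markers they were 43.2 to 89.4 and 0.254 to 0.683 FPKM. The 4 brown and beige adipocyte markers went the other way, at 75.5 to 787 FPKM in iWAT and 5724 to 7149 in BAT. The part of these cell types in the Hox differences was not tested. In bulk tissue, fewer cells of a type and less RNA per cell cannot be told apart. TA muscle had Hoxc10 at 55.1 FPKM, and 5 fast muscle markers summed to 7.26, 387 and 2076 FPKM in the 3 WT iWAT libraries. Hoxc10 was at 27.8, 20.2 and 23.8 FPKM in the same 3 libraries, and the part of muscle in these values was not tested.

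The second question was whether Hox genes differed between MCK-Musclin and WT mice after cold. The targeted gene, Ostn, was at 37.9, 31.6 and 30.3 FPKM in the MCK-Musclin BAT libraries and at 0 in the 3 WT ones. In iWAT it was at 0, 5.17 and 4.21 FPKM in the libraries labelled MCK-Musclin and at 0, 0 and 0.225 in WT. The iWAT library labelled MCK-Musclin replicate 1 thus could not be told from WT by this gene, and it also had little muscle signal (5.51 FPKM over the 5 fast muscle markers), so values without it are given for Hoxb6, Hoxc10 and Hotairm1.

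In iWAT, 19 members had a mean of at least 1 FPKM and were tested, and 1, Hoxb6, was lower in MCK-Musclin past the cutoff used for this depot (unadjusted p under 0.05 and a log2 change beyond 0.5 on the log2(FPKM + 1) scale). No member was higher past it. Of all 12197 genes tested, 0.902% were lower and 5.04% higher past the cutoff. No gene of the table had an adjusted p under 0.05 (limma, Benjamini-Hochberg), while 16.5% had an unadjusted p under 0.05, among them 2 of the 19 members.

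Hoxb6, a central gene of cluster B (chromosome 11, 96292476 to 96301569, plus strand), was at 4.37, 3.37 and 4.74 FPKM in WT iWAT. In the libraries labelled MCK-Musclin it was at 1.92, 2.48 and 2.62. All 3 of these lay below all 3 WT values, and the log2 change was -0.63 with an SE of 0.15 (limma, unadjusted p under the cutoff, adjusted p = 0.15). Without the library labelled MCK-Musclin replicate 1 the change was -0.53 and still past the cutoff (limma adjusted p = 0.22). Its neighbours Hoxb5 (0.29, limma adjusted p = 0.40) and Hoxb7 (0.05, limma adjusted p = 0.85) had log2 changes above 0.

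Hoxc10 (chromosome 15, 102966796 to 102971893, plus strand) was at 27.8, 20.2 and 23.8 FPKM in WT and at 18.0, 17.0 and 19.0 in MCK-Musclin iWAT. The groups did not overlap, but the log2 change of -0.38 (SE 0.13, limma adjusted p = 0.22) was smaller than the cutoff, with an unadjusted p under 0.05. The unadjusted p was above 0.05 without WT replicate 1 (log2 change -0.27, limma adjusted p = 0.31) and without MCK-Musclin replicate 2 (log2 change -0.34, limma adjusted p = 0.37). Without the library labelled MCK-Musclin replicate 1 the change was -0.38, with an unadjusted p under 0.05 (limma adjusted p = 0.31). Groups that do not overlap with MCK-Musclin lower were found for 5.44% of all genes tested and for 2 of the 19 members, Hoxb6 and Hoxc10, and with MCK-Musclin higher for 17.9% and for none of the 19.

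Hoxb9, a posterior gene under the filter of 1 FPKM, also did not overlap between groups. It was at 0.560, 0.580 and 0.491 FPKM in WT and at 0.624, 0.593 and 0.586 in MCK-Musclin iWAT. Without the filter its log2 change was 0.05 with an SE of 0.09 (limma adjusted p = 0.80).

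Taken by cluster, all 6 tested members of cluster C had a log2 change below 0, as did 5 of 6 in cluster A, 1 of 5 in cluster B and 0 of 2 in cluster D. The median log2 change of the 19 members was -0.04 and that of all genes tested was 0.06, with 38.7% of all genes below 0. The highest member, Hoxc8, was at 101, 121 and 123 FPKM in MCK-Musclin iWAT, which overlapped its WT values, with a log2 change of -0.14 (SE 0.12, limma adjusted p = 0.61). Hoxd8 had the highest log2 change, 0.35 (SE 0.24, limma adjusted p = 0.51).

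In BAT, 13 members were tested, all anterior or central, and none had an unadjusted p under 0.05, against 4.89% of all 10893 genes (1 gene with an adjusted p under 0.05, limma). No member was past the cutoff for this depot (unadjusted p under 0.05 and a log2 change beyond 0.3), where 2.15% of all genes were lower and 1.85% higher. None of the 13 had groups that did not overlap, against 5.63% (lower) and 4.38% (higher) of all genes. Hoxa4, with the smallest p, was at 7.60, 8.39 and 9.42 FPKM in MCK-Musclin BAT against 10.1, 10.8 and 8.65 in WT (log2 change -0.20, SE 0.12, limma adjusted p = 0.97). Hoxb6 was at 1.81, 1.15 and 1.42 FPKM in WT and 1.06, 1.02 and 1.37 in MCK-Musclin BAT (log2 change -0.19, SE 0.15, limma adjusted p = 0.97). Whether the change of Hoxb6 differed between depots was not tested.

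**Figure D3:**
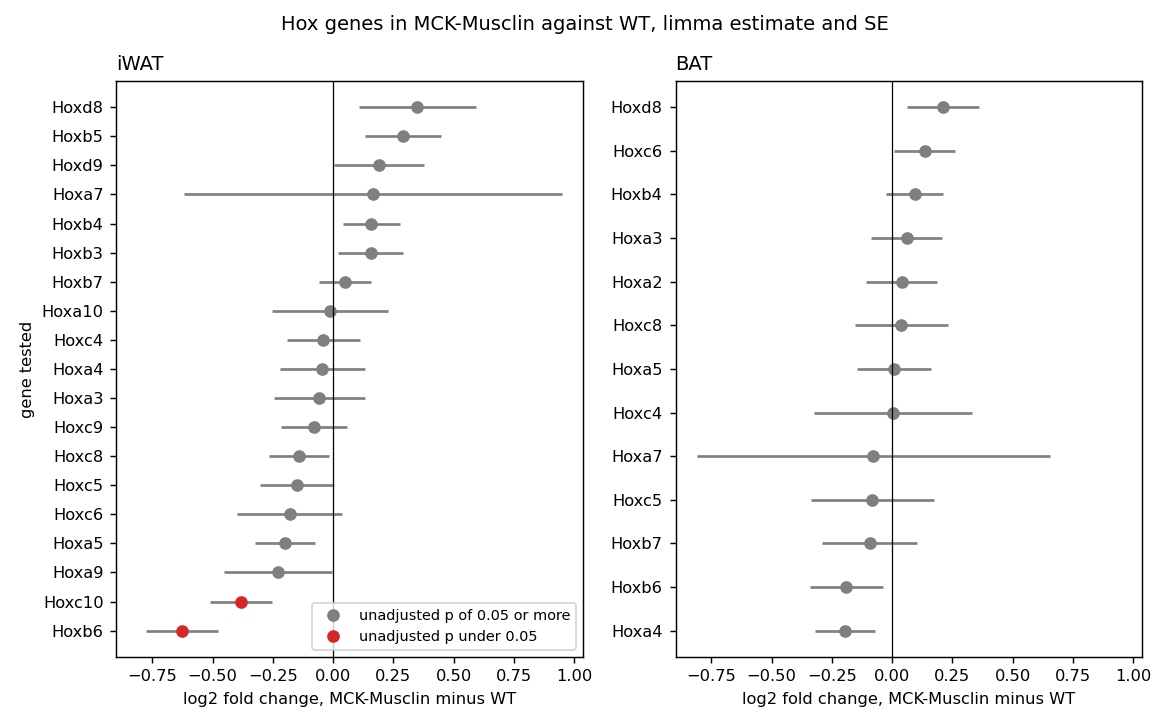
Log2 change (MCK-Musclin minus WT, log2(FPKM + 1) scale) of each tested Hox gene in iWAT (19 genes) and BAT (13 genes). Points are limma estimates, bars are 1 SE, and red marks an unadjusted p under 0.05. Hoxb6 and Hoxc10 in iWAT are the red points.

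**Figure D4:**
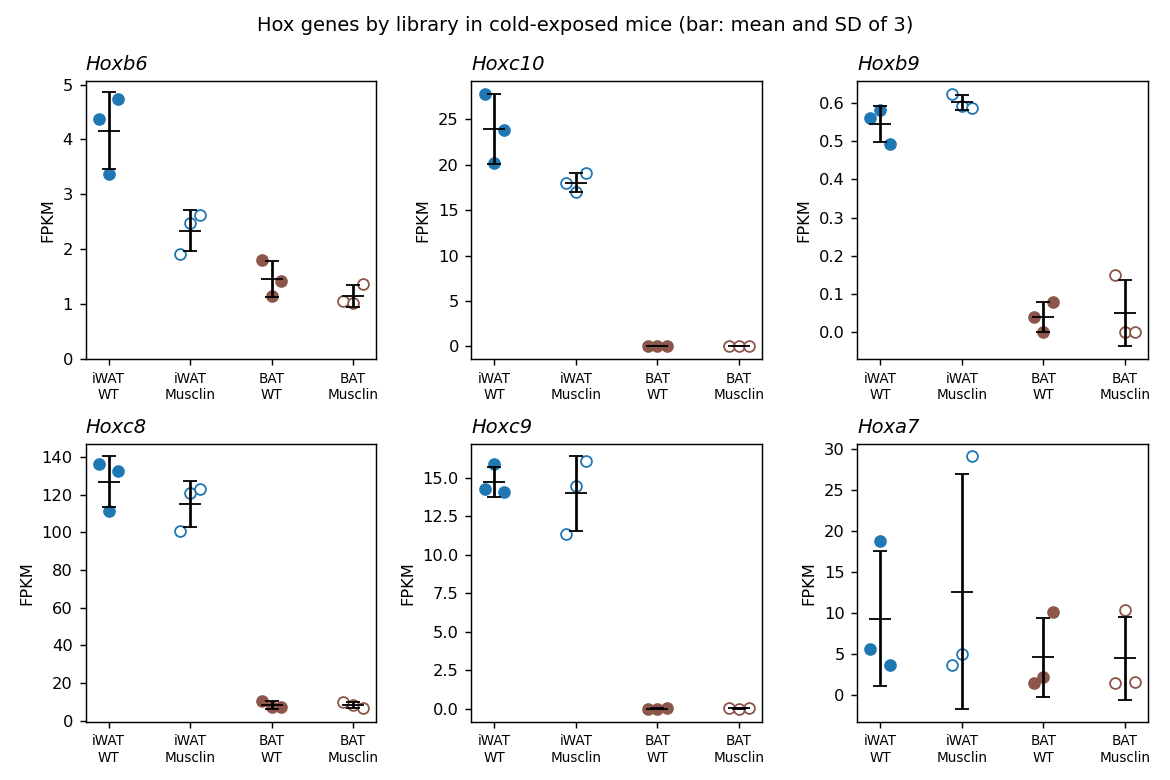
FPKM by library in cold-exposed mice for 6 Hox genes, WT filled and MCK-Musclin open, iWAT blue and BAT brown, with the mean and SD of 3 libraries. Hoxb6, Hoxc10 and Hoxb9 do not overlap between genotypes in iWAT, with Hoxb9 higher in MCK-Musclin. In WT, all but Hoxa7 are higher in every iWAT than in every BAT library, as were 74.0% of all genes listed in both. Hoxa7 has 1 high library in every group.

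The libraries labelled MCK-Musclin in iWAT also had more lymphocyte signal. Over 3 B cell markers the sum was 209 to 284 FPKM in MCK-Musclin and 93.0 to 181 FPKM in WT, and over 3 T cell markers 85.6 to 89.4 and 43.2 to 58.1 FPKM, with none of the 6 at 0 in any iWAT library. The 4 fibroblast and preadipocyte markers summed to 293 to 328 FPKM in MCK-Musclin and 254 to 332 in WT, and the 4 adipocyte markers to 9485 to 10962 and 10747 to 11813 FPKM. The 4 brown and beige adipocyte markers summed to 429, 620 and 787 FPKM in WT iWAT and to 479, 138 and 75.5 FPKM in the libraries labelled MCK-Musclin. By this list too, the library labelled MCK-Musclin replicate 1 lay within the WT range, and the other 2 lay below it. The part of these cell types in the values of Hoxb6 and Hoxc10 was not tested.

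Hoxa7 varied most among the tested members. In BAT it was at 1.44, 2.17 and 10.2 FPKM in WT and at 1.48, 10.4 and 1.60 in MCK-Musclin. In iWAT it was at 5.58, 18.8 and 3.63 FPKM in WT and at 3.67, 5.04 and 29.1 in MCK-Musclin. In each of the 4 groups 1 library was far above the other 2, so the groups overlapped in both depots. Its coefficient of variation was 88.3 to 114%, and that of the other tested members was at most 48.8% in any group.

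The partners and regulators of Hox proteins were counted from lists. Of 11 TALE cofactors (the Pbx, Meis, Pknox and Tgif genes) 10 were tested in iWAT and 6 in BAT, and none was past the cutoff in either. In iWAT 2 of the 10 had an unadjusted p under 0.05, against 16.5% of all genes tested there. Of 20 regulators of Hox expression, 16 were tested in iWAT, none past the cutoff, and 15 in BAT, where Kmt2b, a histone methyltransferase, was higher. Kmt2b was at 3.41, 3.27 and 3.65 FPKM in WT and at 5.22, 3.71 and 4.88 in MCK-Musclin BAT (log2 change 0.33, SE 0.14, limma adjusted p = 0.97). Its groups did not overlap, and its unadjusted p was under 0.05 without MCK-Musclin replicate 2 and above 0.05 without any other single library, where the log2 change was 0.25 to 0.36. The 5 fast muscle markers summed to 246 to 393 FPKM in WT and 406 to 881 FPKM in MCK-Musclin BAT, and 2 endothelial markers to 88.0 to 92.0 and 74.7 to 82.2 FPKM, and their part in the value of Kmt2b was not tested. In iWAT the regulator nearest to the cutoff, singled out after its values were seen, was Gdf11, a secreted factor that acts on Hox expression along the trunk. Gdf11 was at 3.14, 2.52 and 2.36 FPKM in WT and at 3.78, 4.33 and 4.37 in MCK-Musclin iWAT (log2 change 0.49, SE 0.13, limma adjusted p = 0.16). Its groups did not overlap, its unadjusted p was under 0.05, and it was past the cutoff without the library labelled MCK-Musclin replicate 1 or without WT replicate 1. The lymphocyte and beige adipocyte values given above differ between the same libraries, and their part was not tested. The median log2 changes were 0.12 for the cofactors and 0.09 for the regulators in iWAT, and -0.04 and 0.04 in BAT, where the median of all genes was -0.01.

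Of 19 other genes known to mark fat depots or body regions, 11 were tested in iWAT and 7 in BAT, and none was past the cutoff. Their median log2 change was -0.15 in iWAT and -0.07 in BAT. Of 10 noncoding genes of the Hox clusters 1 was tested in iWAT and 3 in BAT. Hoxd3os1 was at 14.7 FPKM in the white adipose library and 4.05 in the brown one. In cold BAT it was at 2.92, 2.94 and 2.13 FPKM in WT and at 2.99, 3.38 and 3.70 in MCK-Musclin, groups that did not overlap (log2 change 0.25, SE 0.14, limma adjusted p = 0.97). Hoxb3os was at 2.96 FPKM in the white adipose library and 2.11 in the brown one, and Hoxa11os was highest in TA muscle, at 1.61. Hoxaas2 and Hoxaas3 stayed under 1 FPKM in all 7 tissues and in BAT, where Hoxb5os was at 0. Hoxaas3, too low to be tested, also did not overlap between groups in BAT, with MCK-Musclin lower. It was at 0.177, 0.156 and 0.388 FPKM in WT and at 0.0741, 0.105 and 0.150 in MCK-Musclin BAT. Hotairm1, a long noncoding RNA of cluster A, was at 10.2, 12.5 and 13.4 FPKM in WT and at 23.9, 13.1 and 24.3 in MCK-Musclin iWAT (log2 change 0.67, SE 0.24, limma adjusted p = 0.23). Those groups overlapped, and without the library labelled MCK-Musclin replicate 1 the change was 0.54 with an unadjusted p above 0.05 (limma adjusted p = 0.37). It was also above 0.05 without WT replicate 1 (0.57) and without MCK-Musclin replicate 3 (0.53), where the values are log2 changes.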

How the data were processed

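The authors filtered reads with fastp and bowtie2, aligned them without strand to mm10 (GRCm38) with HISAT2 2.1.0 and calculated the deposited FPKM values. For that step the study's methods name StringTie and the submitters' processing notes list Cuffdiff, and which made the deposited values is not settled here. The iWAT table also holds the authors' fold changes, p-values and group means, which were not used, and the authors' mean normalized signal over the 6 libraries, deposited as one value per gene, which ran from 67.3 to 17217 over the 26 Hox genes listed there. Read counts were not analysed here and depth is unknown: ratios of low FPKM values shared no step. The filter that selected the iWAT genes is not given in the sources used here.

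Groups followed the sample labels. In the tissue and BAT tables, lines that repeat a gene (287 in each) were used once. MCK-Musclin and WT were compared within each table with limma 3.58.1 (R 4.3.3, eBayes with a trend) on log2(FPKM + 1), over genes with a mean of at least 1 FPKM, with Benjamini-Hochberg adjustment over all of them. This pseudocount understates changes of low genes. The step was tested on simulated data. Positions came from GENCODE M21. The values of 1 member are not reported here. Members, lists and tests were chosen with earlier results of these data known. Genes were given in full where p was under 0.05, where groups did not overlap, where a depot was at 1 FPKM or more and the other under 0.1, and as the highest of a cluster in a tissue. Listed genes were named where past the cutoff or overlapping a member.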

Additional observations from a re-analysis of the deposited data

How the results depend on the processing

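Hoxb6 kept its direction and its place past the cutoff in iWAT under every alternative that tested it, with log2 changes of -0.83 to -0.53. Raising the filter to a mean of 5 FPKM left it untested, so 0 members were then lower. Leaving out 1 library gave 1 member lower each time, and 0 to 1 higher: without MCK-Musclin replicate 1, Hoxd8 was also past the cutoff. Hoxc10 had log2 changes of -0.49 to -0.27. No Hox gene was past the cutoff in BAT under any alternative run. The listed cofactor, regulator, positional and noncoding genes past the cutoff in iWAT numbered 1, and 2 (Hotairm1 and Gdf11) with a pseudocount of 0.1 (with or without the filter on low values, the latter chosen after seeing the data), a pseudocount of 0.01 or FPKM rescaled to TPM, and 0 to 2 with 1 library left out. In BAT they numbered 1, and 0 without the filter, with a filter of 5 FPKM or with the replicate block, and 0 to 2 with 1 library left out. With the replicate number as a block (replicate block), the count of Hox genes lower in iWAT was 1 and Hoxb6 had a limma adjusted p = 0.23, while the unadjusted p of Kmt2b in BAT was above 0.05. Whether the replicate numbers pair the libraries could not be decided from so few libraries. Deviations of same-numbered libraries correlated at 0.235, 0.0615 and 0.107 in iWAT and -0.0951, -0.00463 and 0.00937 in BAT. Those of different-numbered libraries correlated at -0.18 to 0.0702 in iWAT and -0.0842 to 0.0795 in BAT.

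Detection in tissues moved with the level: at 0.5 FPKM brain had 3 and liver 2 members, and at 2 FPKM TA muscle and small intestine had 7 each. After rescaling to TPM brain had 4 and liver 1. In cold WT depots, leaving out 1 library gave 18 to 19 members at 1 FPKM or more in iWAT, 12 to 13 in BAT, and 17 to 18 above in iWAT. Rescaled to TPM over the genes in both tables, 15 members were above in iWAT and 5 in BAT, with Hoxa3 and Hoxc5 added to the latter. Those genes held as little as 36.3% of the summed FPKM of a WT BAT library. The WT mean of Hoxa3 thus went from 3.88 to 14.7 in BAT and from 3.97 to 10.8 in iWAT. The part of the gene list in this order was not tested. On the TPM scale the share of all genes was not counted, so the split of 15 to 5 is not itself a result about Hox genes. With 3 libraries a group, an exact two-sided permutation test could not go below p = 0.1.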
